A study of Mus musculus with 12 samples.

Results

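Glutathione S-transferases (Gst), UDP-glucuronosyltransferases (Ugt) and sulfotransferases (Sult) are the main conjugation enzymes of the liver. They were taken as every gene of the protein-coding table whose symbol holds 1 of these family names with a subfamily letter and a number. This gave 48 genes of the 14188 genes in the table, of which 20 were Gst, 19 were Ugt and 9 were Sult genes, with 92 of its 29883 transcripts. A further 14 of the 62 annotated genes that fit the rule have no transcript in the table, among them Sult2a1, Sult3a1 and Ugt2a1, and were not analysed here. The level of a gene is the sum of the FPKM of its transcripts, where FPKM is the number of sequenced fragments relative to transcript length and library size.

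Conjugation makes drugs, bile acids, bilirubin, steroids and products of lipid peroxidation more water-soluble, so that they can leave the hepatocyte in bile or blood. Gst enzymes add glutathione, Ugt enzymes add a sugar acid from UDP-glucuronic acid, and Sult enzymes add sulfate from the donor PAPS. In the liver these genes are expressed mainly by hepatocytes, and many of them respond to xenobiotic receptors or to the oxidative stress factor Nrf2, which the gene Nfe2l2 encodes.

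Livers of 12 mice were sequenced, 6 of the PZH group and 6 of the control group. The sample labels give the strain as C57BL/8, while the methods of the study describe male C57BL/6J mice of 6 weeks of age at the start. All 12 mice received CCl4, a solvent that injures hepatocytes and leads to fibrosis, injected into the peritoneum with corn oil 2 times per week (10 µl/g of the mixture) over 8 weeks. The PZH group also received 0.25 mg/g of the traditional Chinese medicine Pien Tze Huang (PZH) by gavage each day, and the control group received water. No liver without CCl4 is among these samples, so each comparison is between CCl4 with PZH and CCl4 alone. RNA was from whole liver, in which fewer cells of a type and less RNA per cell cannot be told apart.

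Several of these enzymes are copies of each other, which bears on how reads could be assigned. Gsta1 (chr9:78230656-78242684, + strand, GRCm38) and Gsta2 (chr9:78331018-78355788, - strand) differed at 13 aligned coding bases, an identity of 98.0%. Gm3776, a neighbouring gene outside the symbol rule, differed from Gsta1 at 2 of 669 coding bases. The stretch below is coding bases 419 to 508 of Gsta1, chosen because Gsta1 and Gsta2 differ most there, and the capitals mark bases at which the 3 sequences are not all the same.
Gsta1: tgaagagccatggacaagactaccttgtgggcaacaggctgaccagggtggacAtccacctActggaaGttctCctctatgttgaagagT
Gm3776: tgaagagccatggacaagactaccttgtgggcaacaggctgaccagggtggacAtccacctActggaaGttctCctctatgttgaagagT
Gsta2: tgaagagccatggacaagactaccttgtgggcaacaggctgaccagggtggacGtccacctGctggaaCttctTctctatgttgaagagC
Gsta1 and Gm3776 are identical over these 90 bases, and Gsta2 differs from both at 5.

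The Ugt1a genes share reads by their structure. All 9 lie within 165 kb of chromosome 1 (chr1:88055388-88220002, + strand), each with a first exon of its own. In 8 of them, the main transcript begins exon 2 at position 88215044 and carries the same sequence from there on. The junctions of 4 members show this, with the last bases of exon 1 in lower case and the first bases of exon 2 in capitals.
Ugt1a1: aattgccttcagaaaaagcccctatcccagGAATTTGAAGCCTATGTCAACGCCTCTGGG
Ugt1a2: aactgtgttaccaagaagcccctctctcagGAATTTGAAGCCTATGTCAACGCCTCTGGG
Ugt1a6a: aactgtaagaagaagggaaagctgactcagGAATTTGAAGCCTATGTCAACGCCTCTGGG
Ugt1a9: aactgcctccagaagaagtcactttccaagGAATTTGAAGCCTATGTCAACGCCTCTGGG
The study read fragments from both ends, and a pair with both reads wholly in the capitals or beyond cannot name the gene it came from. Of the stretches of 150 bases in their main transcripts, 38.5% to 97.2% occurred also in another gene for the Ugt1a members. This share was 73.7% for Gsta1, 26.8% for Gsta2, 41.8% for Gstp1 and 49.4% for Gstp2. It was 21.7% for Gstt3, 20.6% for Sult2a2, 19.5% for Ugt2b5, 19.2% for Ugt2b38 and 3.44% for Gstm3. The other 30 members shared no such stretch with another gene. These shares treat a stretch alone and do not use the second read of a pair.

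Most conjugation genes were higher in the PZH group. By limma on log2(gene FPKM + 1), with Benjamini-Hochberg adjustment over all genes, 29 of the 48 genes (60.4%) rose at an adjusted P under 0.05, beside 12.7% of all genes. Only Gsta1 and Ugt2b37 fell, which is 4.17% of the 48 genes beside 32.1% of all genes. The median log2 fold change, PZH minus control, was 0.45 over the 48 genes and -0.11 over all genes, and it was above 0 for 38 of the 48. With a change of at least 2-fold in addition, Gsta3, Gstm2, Gstm3, Gstm7, Gstt3, Sult1b1 and Ugt2a3 rose (14.6% beside 1.49% of all genes) and Gsta1 and Ugt2b37 fell (4.17% beside 2.49%). In 13 genes every PZH mouse was above every control mouse (27.1% beside 6.46% of all genes), and in Gsta1 every PZH mouse was below every control mouse, as in 17.9% of all genes. Every listed transcript had an FPKM sum over the 12 mice of at least 1.0. Sult2a2 and Ugt1a10, both among the 29 and Ugt1a10 also among the 13, reached that sum only with their PZH values. Their place in these counts is therefore partly fixed by the listing.

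Scaling each mouse by a median ratio moved the median of all genes to -0.00104 and the calls over all genes to 19.8% higher and 19.3% lower. Under this scaling 30 of the 48 conjugation genes were higher and 2 lower, and their median was 0.57. The count with at least a 2-fold rise was 12 with a pseudocount of 0.1. The count of higher genes without overlap was 21 under the median-ratio scaling and 20 when PZH 2 was left out. For these counts the shares of all genes at the same settings are not given.

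**Figure D1:**
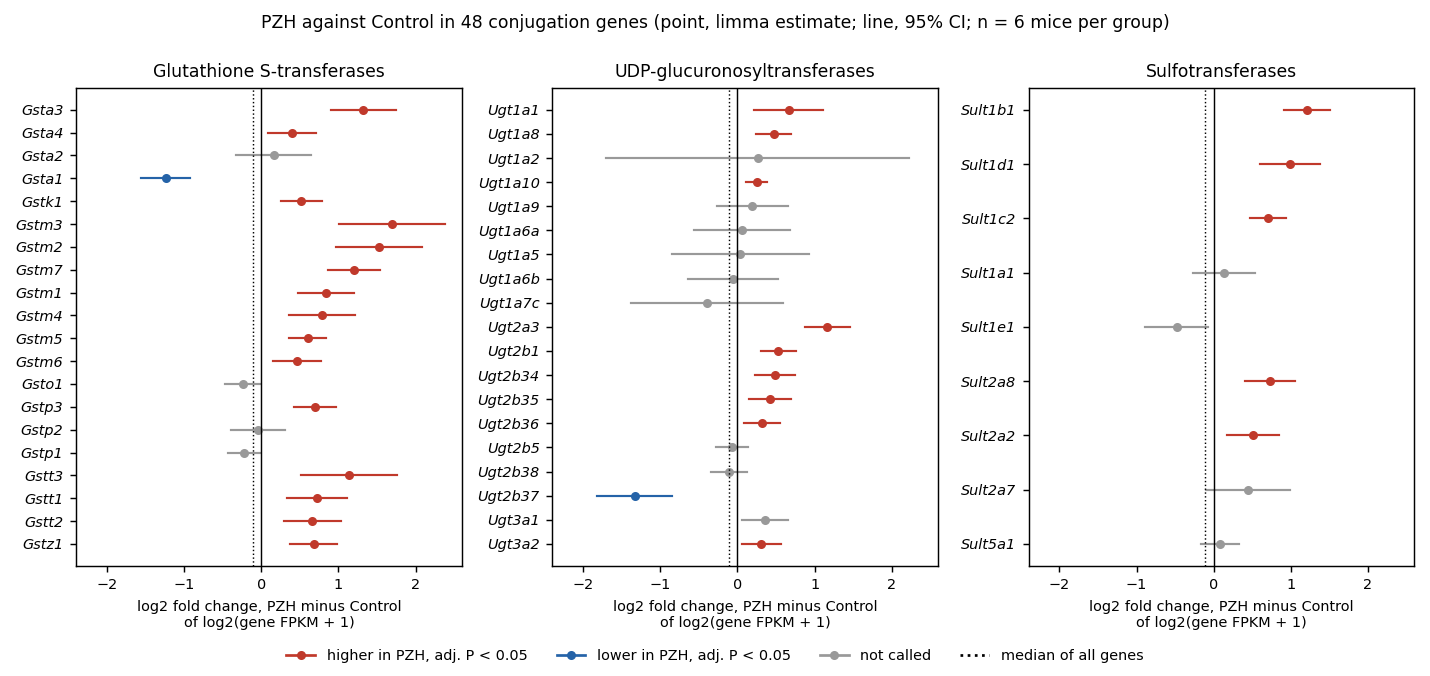
Log2 fold change, PZH minus control, of log2(gene FPKM + 1) for the 48 conjugation genes, in 3 panels by family and ordered within a panel by subfamily. Points are limma estimates and lines are 95% confidence intervals with 6 mice per group. The dotted line is the median of all genes at -0.11. All 7 Gstm genes lie to the right of 0, and Gsta1 and Ugt2b37 lie far to the left.

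The mu-class enzymes (Gstm), which conjugate a broad range of electrophiles, rose as a whole subfamily. All 7 genes passed the test, with log2 fold changes from 0.47 for Gstm6 to 1.69 for Gstm3. They lie side by side within 149 kb (chr3:107895821-108044894), and 5 of them had no overlap between the groups. Gstm3 was at 177 to 395 FPKM in the PZH mice (median 265) and 42.4 to 143 in the control mice (median 106). The lowest PZH value was above the highest control value, and the means were 283 ± 82.8 and 93.0 ± 41.7 FPKM (SD, n = 6 mice per group). Its log2 change was 1.69 (SE 0.32, adjusted P = 0.000885 by limma).

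For Gstm2 the PZH mice had 68.9 to 161 FPKM (median 117) and the control mice 20.04 to 51.3 (median 44.1), again without overlap. Gstm2 means were 115 ± 36.2 and 39.5 ± 12.6 FPKM (SD, n = 6), with a log2 change of 1.53 (SE 0.26, limma adjusted P = 0.000455). Gstm7 had 36.9 to 57.6 FPKM (median 47.2) in the PZH group against 15.9 to 28.0 (median 18.4) in the control group. Its groups did not overlap either, the means were 48.02 ± 8.12 and 20.5 ± 5.28 FPKM (SD, n = 6), and the log2 change was 1.204 (SE 0.16, limma adjusted P = 8.47e-05).

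Gstm1 was the most abundant member of this cluster, at 866 to 1136 FPKM in the PZH mice (median 957) and 366 to 802 in the control mice (median 591). All PZH values were above all control values, although Control 2 (802) came close to PZH 2 (866). Means of Gstm1 were 973 ± 105 and 561 ± 161 FPKM (SD, n = 6), and its log2 change was 0.84 (SE 0.17, limma adjusted P = 0.00149). Gstm4 and Gstm5 rose by 0.79 and 0.60 on the log2 scale. Summed over the 7 genes, Gstm FPKM ranged from 1248 to 1798 in the PZH group, above the range of 515 to 1120 in the control group.

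The Gstm coding sequences are related but not interchangeable for reads. Gstm1 and Gstm3 differed at 69 of 654 coding bases (identity 89.4%), and Gstm1 and Gstm2 at 92 (85.9%). Gstm2 reads were still divided unevenly between its annotated transcripts. Gstm2-202 held 98.1 FPKM in PZH 6 and 26.0 in Control 3, and at most 0.35 in every other mouse, while Gstm2-201 carried the gene in the rest.

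In the alpha class (Gsta), abundant hepatocyte enzymes that also reduce lipid hydroperoxides, the members went in opposite directions. Gsta3 and Gsta4 rose, Gsta1 fell and Gsta2 did not pass the test. Gsta3 (chr1:21240589-21265661, + strand) had 347 to 719 FPKM in the PZH mice (median 552) and 152 to 265 in the control mice (median 226). These groups were separate, with means of 540 ± 147 and 212 ± 45.3 FPKM (SD, n = 6) and a log2 change of 1.32 (SE 0.19, limma adjusted P = 0.00018). All 3 of its transcripts rose, by 1.24, 1.37 and 1.83 on the log2 scale.

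Gsta1 was at 34.0 to 60.9 FPKM in the PZH group (median 46.4) and at 87.3 to 142 in the control group (median 111). Every PZH mouse was below every control mouse, with means of 46.7 ± 9.46 and 111 ± 20.9 FPKM (SD, n = 6). The log2 change was -1.24 (SE 0.15, limma adjusted P = 5.21e-05). Its near-copy Gm3776, named here because of its sequence, moved alongside, at 31.2 to 53.7 FPKM in the PZH group and 66.3 to 133 in the control group (log2 fold change -1.18, limma adjusted P = 0.000148). The printed stretch is the same in both, so how reads were divided between Gsta1 and Gm3776 is uncertain. Gsta2, which differs at the capitals, had a median of 23.9 FPKM in the PZH group, beside 23.2 in the control group (log2 fold change 0.16, 95% interval -0.33 to 0.65). Gsta4, which conjugates hydroxynonenal from lipid peroxidation, rose by 0.40 on the log2 scale (limma adjusted P = 0.0378). That call was lost in 6 of the 12 fits that left out 1 mouse.

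**Figure D2:**
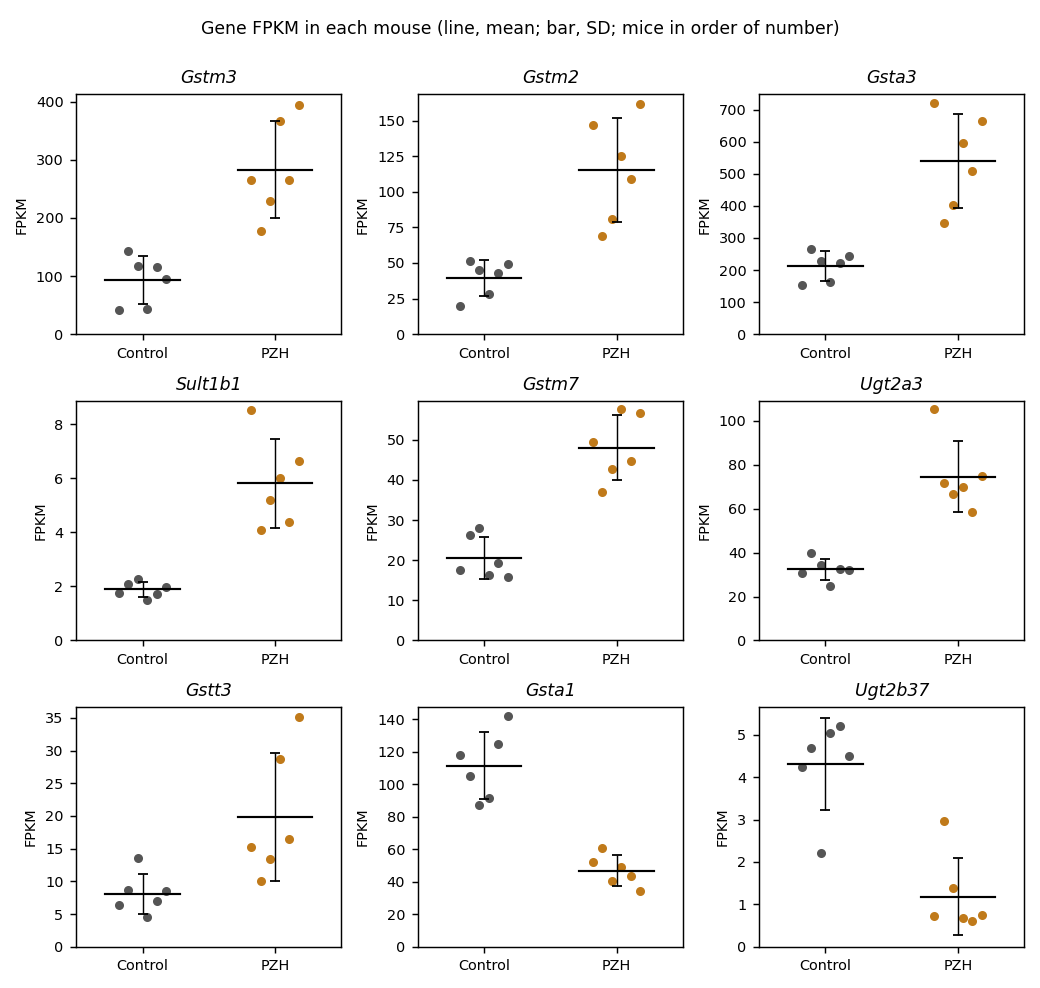
Gene FPKM (y axis, linear, from 0) in each of the 6 control and 6 PZH mice for the 9 conjugation genes that passed the test with at least a 2-fold change. Horizontal lines are means and bars are SD. Groups are separate for Gstm3, Gstm2, Gsta3, Sult1b1, Gstm7, Ugt2a3 and Gsta1, and overlap for Gstt3 and Ugt2b37.

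The pi-class gene Gstp1 was the most abundant Gst gene of the control livers, at 986 to 1231 FPKM (median 1116). In the PZH mice it was at 754 to 1077 FPKM (median 1010), with overlap between the groups. Means were 950 ± 129 and 1103 ± 91.7 FPKM (SD, n = 6), and the log2 change of -0.22 (SE 0.10) did not pass the test (limma adjusted P = 0.0752). Under the median-ratio scaling this value was -0.03. Gstp2, which differs from Gstp1 at 12 of 630 coding bases, had a log2 fold change of -0.04 (95% interval -0.39 to 0.30). Gstp3, at 24.8 to 34.2 FPKM in the PZH group and 12.9 to 21.6 in the control group, rose by 0.70 without overlap.

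Each of the 3 theta-class genes (Gstt), which act on small halogenated compounds, passed the test. Gstt3 had 10.1 to 35.2 FPKM in the PZH group (median 15.8) and 4.61 to 13.5 in the control group (median 7.73). The groups overlapped through PZH 2, PZH 3 and Control 3, and PZH 6 and PZH 4 were far above the other PZH mice. Means of Gstt3 were 19.9 ± 9.82 and 8.09 ± 3.05 FPKM (SD, n = 6), with a log2 change of 1.14 (SE 0.29, limma adjusted P = 0.00649). Gstt1 had 65.6 to 142 FPKM (median 96.9) against 43.9 to 72.2 (median 58.3), with means of 98.9 ± 28.4 and 58.2 ± 10.2 (SD, n = 6) and a log2 change of 0.72 (SE 0.18, limma adjusted P = 0.00538). Gstt2 rose by 0.66.

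The remaining Gst classes hold 1 gene each. Gstz1, which is also the maleylacetoacetate isomerase of tyrosine breakdown, had 147 to 241 FPKM in the PZH mice (median 202) and 90.6 to 150 in the control mice (median 122.9). Only PZH 2 fell below the highest control mouse, Control 6. Gstz1 means were 196 ± 36.0 and 122 ± 21.1 FPKM (SD, n = 6), and the log2 change was 0.68 (SE 0.14, limma adjusted P = 0.00177).

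Gstk1, a mitochondrial and peroxisomal enzyme, had 22.4 to 38.3 FPKM (median 29.9) against 16.7 to 23.5 (median 21.6). Its means were 30.2 ± 5.16 and 20.7 ± 2.90 FPKM (SD, n = 6), and it rose by 0.52 (SE 0.12, limma adjusted P = 0.00376). Gsto1, a thioltransferase that reduces dehydroascorbate, had 65.8 to 81.0 FPKM (median 72.8) in the PZH group and 74.0 to 114 (median 84.8) in the control group. Its means were 73.1 ± 7.54 and 87.0 ± 14.1 FPKM (SD, n = 6), and the log2 change of -0.24 (SE 0.10) did not pass the test (limma adjusted P = 0.0745).

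The makeup of the Gst pool is given as a description, since shares within a sum are not independent of each other. Summed Gst FPKM was 3165 to 4213 in the PZH mice (mean 3686 ± 384, SD, n = 6) and 2114 to 3108 in the control mice (mean 2678 ± 411). Gstp1 made up 36.5% to 46.6% of it in the control mice and 20.4% to 32.3% in the PZH mice. The share of Gsta3 was 6.80% to 8.54% in the control group and 10.96% to 19.5% in the PZH group, and that of Gsta1 was 3.10% to 5.27% and 0.852% to 1.92%. For Gstm1 the shares were 17.3% to 25.8% and 24.1% to 27.6%, which overlap.

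**Figure D3:**
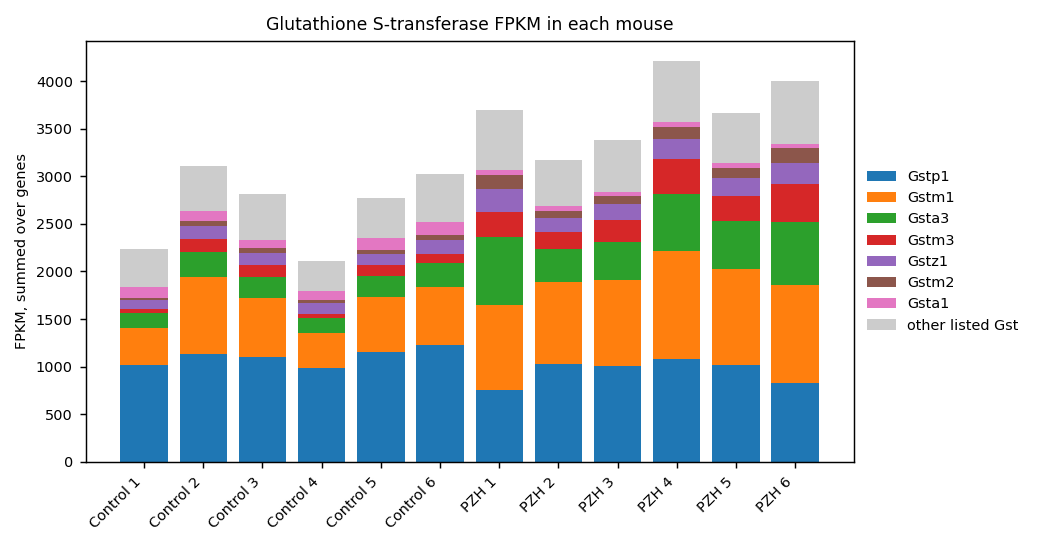
Summed FPKM of the 20 Gst genes (y axis, linear) in each mouse, divided into the 7 Gst genes shown by color and the other listed Gst genes in grey. Gstp1 is the largest block in all 6 control mice, and the Gstm1, Gsta3 and Gstm3 blocks are taller in the PZH mice.

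Of the 19 Ugt genes, 9 rose, Ugt2b37 fell and 9 did not pass the test. Ugt2a3, which acts on bile acids, had the largest rise among them. It was at 58.6 to 105 FPKM in the PZH mice (median 70.9) and 24.95 to 39.7 in the control mice (median 32.4), without overlap. Its means were 74.6 ± 16.0 and 32.4 ± 4.83 FPKM (SD, n = 6), and its log2 change was 1.17 (SE 0.13, limma adjusted P = 3.98e-05).

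The Ugt2b enzymes act on steroids, bile acids and fatty acid products, and 4 of the 7 rose, by smaller amounts. Ugt2b1, Ugt2b34, Ugt2b35 and Ugt2b36 rose by 0.53, 0.49, 0.42 and 0.32 on the log2 scale, and of these only Ugt2b1 had no overlap. The Ugt2b36 call was lost without Control 4 or PZH 4, and none of its 3 transcripts passed the test alone. Ugt2b5, the most abundant Ugt gene, had 272 to 393 FPKM (median 319) in the PZH group beside 288 to 385 (median 340) in the control group. The ranges nearly coincide, with means of 322 ± 42.0 and 336 ± 35.3 FPKM (SD, n = 6) and a log2 change of -0.07 (SE 0.10, 95% interval -0.27 to 0.14, limma adjusted P = 0.61).

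Ugt2b37 was among the low members, at 0.616 to 2.96 FPKM in the PZH mice (median 0.734) and 2.20 to 5.21 in the control mice (median 4.59). The groups overlapped only because PZH 2 was above Control 3. Means were 1.18 ± 0.91 and 4.31 ± 1.09 FPKM (SD, n = 6), and the log2 change was -1.33 (SE 0.23, limma adjusted P = 0.000454). Ugt2b37 is 94.7% identical to Ugt2b5 in its 1590 coding bases but shared no stretch of 150 bases with it. On chromosome 5 it lies between Ugt2b5 and Ugt2a3, in a run of 11 conjugation genes (chr5:86889767-87591594) of which 7 rose and 1 fell.

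At the Ugt1a locus 3 of 9 genes passed the test, all upward. Ugt1a1, the enzyme that conjugates bilirubin, had 155 to 287 FPKM in the PZH group (median 241) and 89.0 to 195 in the control group (median 147). The groups overlapped, with means of 229 ± 53.2 and 146 ± 41.3 FPKM (SD, n = 6) and a log2 change of 0.67 (SE 0.21, limma adjusted P = 0.0189). Ugt1a8 and Ugt1a10, both at most 1.12 FPKM in every mouse, rose by 0.47 and 0.25. The 6 others had log2 fold changes of -0.39 to 0.26, and Ugt1a7c was listed at 0 in 4 PZH and 2 control mice.

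Within the Ugt1a locus the split between genes varied from mouse to mouse. Summed Ugt1a FPKM was 341 to 509 in the PZH mice, beside 312 to 416 in the control mice. Ugt1a2 was at 102 FPKM in PZH 4 and 41.4 in Control 4, and at 6.54 or less in the 10 other mice. In the same mice Ugt1a1 was lowest of its group, at 155 and 89.0 FPKM, and Ugt1a5 was highest of its group, at 80.1 and 71.7. Ugt1a6b was at 109 FPKM in Control 2 and Ugt1a6a at 113 in Control 6, beside at most 63.7 for either gene in any other mouse. These genes share most of their exons, as printed above, and Ugt1a6a and Ugt1a6b differ at only 26 of 1593 coding bases (identity 98.4%). The division of reads between the Ugt1a genes is therefore uncertain.

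**Figure D4:**
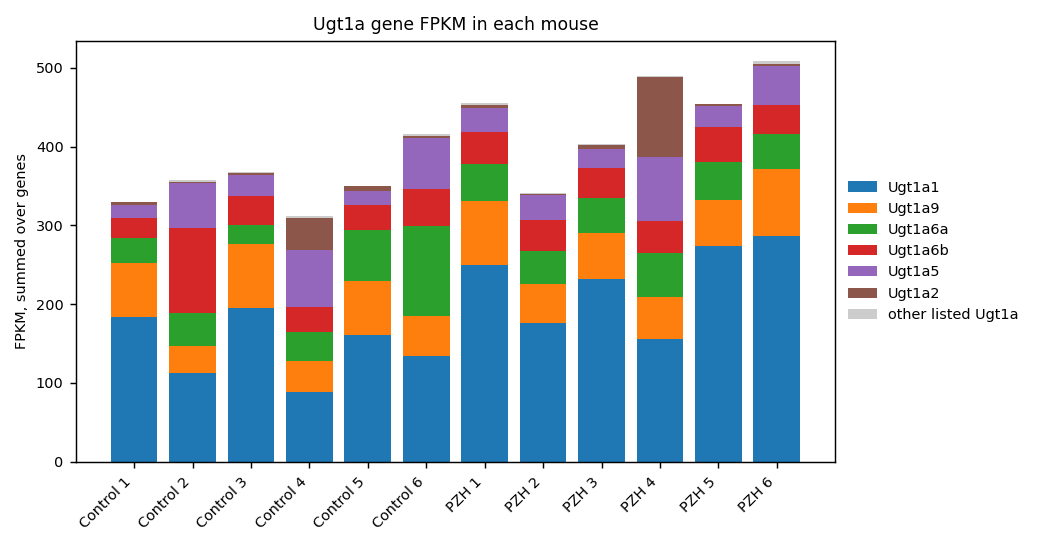
Summed FPKM of the 9 Ugt1a genes (y axis, linear) in each mouse, divided by gene. The Ugt1a2 block is visible in PZH 4 and Control 4 and thin in the other mice, and the Ugt1a6b block of Control 2 and the Ugt1a6a block of Control 6 are the tallest of their kind.

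The Ugt3a enzymes use other sugars than glucuronic acid. Ugt3a2 had 97.2 to 164 FPKM in the PZH group (median 117) and 84.7 to 113 in the control group (median 95.004), with overlap. Means of Ugt3a2 were 121 ± 23.9 and 96.1 ± 10.1 FPKM (SD, n = 6), and its log2 change was 0.31 (SE 0.12, limma adjusted P = 0.0462). Its call was lost in 9 of the 12 fits without 1 mouse. Ugt3a1 had a log2 fold change of 0.35 that did not pass the test (limma adjusted P = 0.0538).

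Of the 9 Sult genes, 5 rose and 4 did not pass the test. Sult1b1, which sulfates thyroid hormones, was low but separate between the groups, at 4.09 to 8.52 FPKM in the PZH mice (median 5.60) and 1.48 to 2.29 in the control mice (median 1.86). Its means were 5.81 ± 1.64 and 1.89 ± 0.29 FPKM (SD, n = 6), and its log2 change was 1.21 (SE 0.14, limma adjusted P = 3.98e-05). Sult1d1, which sulfates catecholamines and lies next to Sult1b1 on chromosome 5, rose by 0.99. Sult1c2 rose by 0.70 without overlap, from a control median of 0.369 FPKM to a PZH median of 1.39.

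Sult2a8, a bile acid sulfotransferase of mouse liver, had 54.0 to 96.0 FPKM in the PZH group (median 61.2) and 32.0 to 52.5 in the control group (median 38.5). The groups were separate, with means of 66.0 ± 16.0 and 39.2 ± 7.43 FPKM (SD, n = 6) and a log2 change of 0.73 (SE 0.15, limma adjusted P = 0.00187). Of its 6 listed transcripts 1 passed the test, upward (log2 fold change 0.96, limma adjusted P = 0.00251). Sult2a2 was listed at 0 in 4 control mice and in PZH 2, was at 0.0379 and 0.119 FPKM in the other control mice and reached at most 1.32 FPKM in the PZH mice. It passed the test (limma adjusted P = 0.0188), and no fold is given for it. Sult2a7 had a log2 fold change of 0.44 (95% interval -0.10 to 0.99).

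Sult1a1, the main phenol sulfotransferase, was the most abundant Sult gene. It had 124 to 241 FPKM in the PZH mice (median 183) and 118 to 231 in the control mice (median 171), ranges that lie almost on each other. Means were 186 ± 47.7 and 169 ± 38.5 FPKM (SD, n = 6), and the log2 change was 0.13 (SE 0.19, 95% interval -0.27 to 0.54, limma adjusted P = 0.59). Sult1e1, the estrogen sulfotransferase, had a log2 fold change of -0.48 (limma adjusted P = 0.0548) at medians of 0.460 and 1.03 FPKM. Sult5a1 was at 0.290 to 0.849 FPKM in the PZH group (median 0.564) and 0.190 to 0.759 in the control group (median 0.515). Its means were 0.554 ± 0.19 and 0.478 ± 0.23 FPKM (SD, n = 6), with a log2 change of 0.08 (SE 0.11, limma adjusted P = 0.608).

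Individual mice ranked alike across many of the 29 genes that rose. PZH 2 was the lowest PZH mouse for 20 of them, and PZH 1 was the highest for 16. In the control group Control 4 was lowest for 13 and Control 1 for 12, while Control 3 and Control 6 were each highest for 10. The ranks of different genes within a mouse share a library and are not independent. The sum of all protein-coding FPKM was also highest in PZH 1 (370426) and lowest of the PZH mice in PZH 2 (326060). Among the control mice it was lowest in Control 4 (325302) and highest in Control 6 (334194), while Control 1 (332248) was above Control 3 (331574). The same ranks over all genes were not counted.

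At the level of transcripts, 35 of the 92 were higher (5.73% of all transcripts in the table were) and 2 were lower (14.0% of all). No transcript was called against the direction of its gene or in a gene that was not called. Among the 16 called genes with several transcripts, 28 of their 52 transcripts did not pass the test. The 7 transcripts with a sign opposite to their gene also did not pass, among them Gstp3-201 (log2 fold change -0.51) and Gstm6-202 (-0.09). Ugt1a6b-202 had a log2 fold change of 2.01 (adjusted P = 0.145 by limma) and was listed at 0 in Control 3 and Control 6, where Ugt1a6b-201 held 36.4 and 47.9 FPKM.

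Long noncoding transcripts lay within 5 kb of 2 of these genes. Gm12498 beside Gstm1 had a log2 fold change of 0.04 (limma adjusted P = 0.785), and C920006O11Rik beside Gsta4 had 0.14 (limma adjusted P = 0.265). Neither was called, where 20.6% of the lncRNA transcripts were called in either direction.

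The genes around these enzymes were described from a list of 56, of which 54 were in the table (Sts and Ggt1 were not). Of the 54, 20 rose, 10 fell and 24 did not pass the test, where 12.7% of all genes rose and 32.1% fell. Of the 6 genes of glutathione metabolism 4 fell (Gclc, Gss, Gsr and Chac1) and none rose, and of the 3 genes that supply sulfate 2 rose and none fell. The difference between these lists was not tested.

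Gclc, the catalytic subunit of the enzyme that limits glutathione synthesis, had 60.6 to 96.6 FPKM in the PZH mice (median 73.4) and 159 to 423 in the control mice (median 321). The groups were separate, with a log2 change of -1.90 (SE 0.21, limma adjusted P = 3.62e-05). Its modifier subunit Gclm had a log2 fold change of 0.37 that did not pass the test (adjusted P = 0.158). Gsr, which regenerates glutathione, and Gss, which completes it, fell by 0.96 and 0.62, both without overlap. For Gss the most abundant transcript alone gave -0.10 (adjusted P = 0.91 by limma). Chac1, which degrades glutathione, fell by 1.35.

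Papss2, which makes the sulfate donor PAPS, had 51.4 to 80.5 FPKM in the PZH group (median 65.8) and 10.2 to 24.1 in the control group (median 18.3). This was a log2 change of 1.86 (SE 0.19, limma adjusted P = 2.28e-05) without overlap, and the sulfate carrier Slc26a1 rose by 1.24. Papss1 had -0.09 (adjusted P = 0.679 by limma). Ugdh, which makes UDP-glucuronic acid, fell by 0.58, a call that was lost under the median-ratio scaling (-0.39, adjusted P = 0.0952 by limma). Gusb, which removes glucuronic acid, rose by 0.28, a call that was lost when all mice were set to an equal sum (0.25, adjusted P = 0.0706 by limma).

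Among other conjugation enzymes Inmt, a methyltransferase, rose by 1.86, and Tpmt, Nat8 and Glyat rose by 0.76, 0.72 and 0.39. Nnmt, which methylates nicotinamide, fell by 0.94 (adjusted P = 0.0155 by limma), with an adjusted P of 0.0567 under the median-ratio scaling. The membrane enzyme Mgst1, at 945 to 1583 FPKM in the PZH group beside 954 to 1339 in the control group, had a log2 fold change of 0.08 (95% interval -0.19 to 0.35). Of the exporters of conjugates, Abcc2 and Abcg2 rose by 0.40 and 0.45 and Abcc4 fell by 0.99.

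Of the 15 regulators 5 rose, 2 fell and 8 did not pass the test, where 12.7% of all genes rose and 32.1% fell. The xenobiotic receptor Nr1i3 (CAR) had 11.8 to 29.9 FPKM in the PZH group (median 17.9) and 4.17 to 11.9 in the control group (median 7.51), which touched at their edges. It rose by 1.15 (SE 0.26, limma adjusted P = 0.00278). Nr1i2 (PXR), Ppara, the bile acid receptor Nr1h4 and the dioxin receptor Ahr rose by 0.74, 0.92, 0.98 and 0.45, and the Ahr call was lost without Control 1, Control 3, PZH 5 or PZH 6. Nfe2l2 (Nrf2) had medians of 41.8 and 40.5 FPKM and a log2 change of 0.06 (SE 0.12, adjusted P = 0.741 by limma). From the list of genes around these enzymes, Nqo1 had 0.05 (adjusted P = 0.859 by limma). Of the glutathione genes of that list, described above, Gclm had 0.37 and was not called, while Gclc and Gsr fell by 1.90 and 0.96. The activity of Nrf2 was not tested. Hnf4a fell by 0.30 and Keap1 by 0.27, and both calls were lost under the median-ratio scaling (adjusted P = 0.25 and 0.341 by limma).

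Of 4 genes used as readouts of these receptors, 3 rose, where 12.7% of all genes rose and 32.1% fell. Cyp1a2, an Ahr target that pericentral hepatocytes express, had 229 to 791 FPKM against 67.8 to 124, a log2 fold change of 1.996. Cyp1a1 rose by 1.73, and it was at 48.2 FPKM in 1 PZH mouse beside a PZH median of 2.91. That call was lost without Control 1 or Control 5. Cyp2b10 rose by 1.14, and Cyp3a11 had 0.41 (adjusted P = 0.18 by limma).

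**Figure D5:**
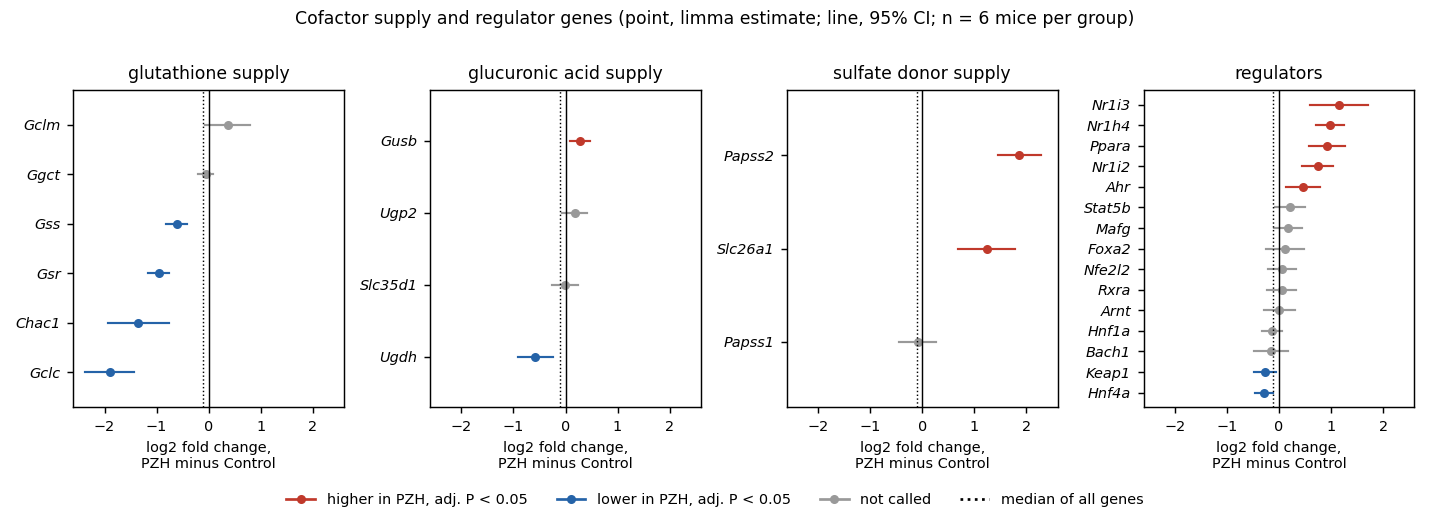
Log2 fold change, PZH minus control, of log2(gene FPKM + 1) for genes of glutathione, glucuronic acid and sulfate donor supply and for regulators. Points are limma estimates, lines are 95% confidence intervals with 6 mice per group, and the dotted line is the median of all genes at -0.11. Gclc, Chac1, Gsr and Gss lie to the left and Papss2 and Slc26a1 to the right, and Nfe2l2 lies at 0.06.

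Promoters were searched for the core of the antioxidant response element, TGACNNNGC, on both strands of 250 bases before to 50 after each start site (RefSeq windows, GRCm38.p6). Windows were given for 42 of the 48 genes, and 3 of them (7.14%) held the motif, namely Gsta3, Gstm5 and Gstm7. It was present in 12.4% of all 32851 windows and at 14% of all genes with a window. The match of Gsta3, shown because Gsta3 is the most abundant gene that rose by over 2-fold, begins 121 bases before its start site and is in capitals in this stretch of the + strand, chr1:21240439-21240497.
Gsta3: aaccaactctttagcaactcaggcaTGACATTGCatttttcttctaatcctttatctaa
A match of letters is a description of the sequence and no measurement of binding.

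Some hepatocyte markers moved with these genes. The marker counts below stand beside 12.7% of all genes that rose and 32.1% that fell. Of the 6 hepatocyte markers 3 rose (Alb, Ttr and Cps1), while Apoa1, Tat and Serpina1c had log2 fold changes of 0.28, 0.32 and -0.00107 and did not pass the test. Their summed level, most of it Alb, was 41587 to 58085 FPKM in the PZH mice, beside 23607 to 37464 in the control mice. Without Alb, an alternative chosen after seeing the data, the sum of the other 5 was 8227 to 11723 FPKM against 5592 to 8248, ranges that overlapped slightly. Of the 7 listed pericentral markers 4 rose, namely Cyp2e1, Cyp1a2, Lgr5 and Axin2. Glul, Rhbg and Oat had log2 fold changes of 0.32, 0.26 and -0.49 and did not pass the test. The pericentral sums were 878 to 1865 and 246 to 438 FPKM. Most of this was Cyp2e1 (means 972 in the PZH and 206 in the control group) and Cyp1a2 (405 and 95.9). Of 6 periportal markers 3 rose, with sums of 1217 to 2109 and 1128 to 1358. Alb, the defining hepatocyte transcript, was at 18015 to 46362 FPKM over all 12 mice, so the liver label was not contradicted. Stellate cell markers gave 2 higher and 2 lower of 8 (282 to 355 and 217 to 324 FPKM), Kupffer cell and macrophage markers 2 and 2 of 6 (274 to 426 and 287 to 385). Cholangiocyte markers gave 0 higher and 1 lower of 6 (67.4 to 134 and 97.4 to 161), endothelial markers 0 and 1 of 4 (64.8 to 80.7 and 64.9 to 76.8) and markers of neutrophils and lymphocytes 0 and 0 of 5 (6.47 to 118 and 10.8 to 49.0). The part of hepatocyte content or zone in the higher levels of the conjugation genes was not tested.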

How the data were processed

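The authors sequenced rRNA-depleted, strand-specific libraries of whole liver, trimmed reads with Trimmomatic, mapped them with HISAT2 to GRCm38 and assembled transcripts with StringTie and Ensembl release 95. The deposited values are linear FPKM of 29883 protein-coding and 1432 lncRNA transcripts in each mouse. They are no counts, so the depth behind each value is unknown and no counting interval is given. GENCODE M21 gave gene symbols for 29876 and 1431 of these transcripts.

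Gene FPKM (the sum over transcripts) was put on the log2(FPKM + 1) scale without a filter and compared over all 14188 genes with limma 3.58.1 (R 4.3.3), two-sided, with Benjamini-Hochberg adjustment. A fold change on this scale understates that of low genes. The procedure was tested on simulated data, normal draws on the log2 scale from the control mean and within-group SD of each gene. Of 200 genes changed by 1 on that scale 189 were recovered, and 17 unchanged genes were called. The changed genes were drawn only from those with a control mean above 2 on that scale, so recovery of low genes was not tested. Only 200 of the 14188 genes were changed, where 12.7% of all genes rose and 32.1% fell in the data. Dependence between genes was not simulated. Tables were made with Python 3.11.15 and pandas 2.3.3. Fully described were members with a called change of at least 2-fold and the member with the highest mean FPKM of each subfamily. Members and lists were chosen with earlier results of these data known. Columns were assigned by group and number in their names. Whether mice shared cages or sequencing batches is not given in the sources used here. Alternatives tried were 2 scalings, a pseudocount of 0.1, a minimum mean FPKM of 1, a variance trend, the mouse number as a block, the most abundant transcript alone, and each mouse left out.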

Additional observations from a re-analysis of the deposited data

Results flagged for a closer look

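On the log2(FPKM + 1) scale, 1 mouse stood apart by Dixon's test in 5 of the 96 groups of 6 mice (48 genes in 2 groups), and chance alone gives about 1 in 20. The values below are linear FPKM. Ugt1a2 was at 102.3 FPKM in PZH 4, with 1.852 to 5.594 in the other PZH mice. Ugt2b37 was at 2.202 FPKM in Control 3, with 4.233 to 5.209 in the other control mice. Gsto1 was at 113.8 FPKM in Control 6 (others 74.04 to 86.9) and Gstp2 at 35.37 FPKM in Control 4 (others 55.41 to 68.81). Sult2a2 was at 0.1186 FPKM in Control 6, where the other control mice were at 0 to 0.03795. On linear FPKM, an alternative chosen after seeing the data, the same test gave 11 groups, of which 4 were also among these 5 (Gstp2 was not). The 7 others were Ugt1a2 in Control 4 (41.44 FPKM, others 1.5 to 6.541), Ugt1a6b in Control 2 (108.6), Ugt2b37 in PZH 2 (2.957), Ugt3a1 in Control 6 (12.38), and Sult2a8, Ugt2a3 and Ugt2b34 in PZH 1 (96.0, 105.2 and 219.3 FPKM), each the highest of its group.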

How the results depend on the processing

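No call changed direction in any of the 7 alternatives or the 12 fits without 1 mouse. Setting the same FPKM total in all mice gave 4 lower genes in place of 2, with Gsto1 and Sult1e1 added. Under the median-ratio scaling 21 higher genes had no overlap in place of 13. With it 6 genes of the surrounding list fell in place of 10, beside 19.3% of all genes. A pseudocount of 0.1 gave 12 genes with at least a 2-fold rise in place of 7. With each mouse left out, the median log2 fold change was 0.40 to 0.51, 26 to 30 genes were higher (6 to 8 by 2-fold), 2 to 3 were lower (2 by 2-fold), 13 to 20 higher and 1 to 2 lower genes had no overlap, and 17 to 23 of the surrounding genes rose and 9 to 10 fell. The value of 20 was without PZH 2, and the value of 2 lower genes without overlap was without PZH 2 or Control 3. For counts by 2-fold change or without overlap in this paragraph, the shares of all genes at the same settings are not given. Mouse numbers did not pair the samples (r of same-numbered mice -0.0732 to 0.0763, and only 1 mouse number was its own best match). The replicate block gave 25 higher and 3 lower genes, 20 higher and 9 lower surrounding genes, and a median of 0.45; Gsta4, Gstm6, Ugt2b36 and Ugt3a2 were no longer called and Sult1e1 was. The cause of these changes was not tested. FPKM without counts limits what can be said of the 6 genes with a mean FPKM under 1. These are Sult1c2, Sult1e1, Sult2a2, Sult5a1, Ugt1a8 and Ugt1a10.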
